A study of Gossypium hirsutum with 51 samples.

Results

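The clones described here are cDNA array spots whose transcript stood higher in wild-type upland cotton ovules on the day of flowering than both 3 days before and 3 days after it. Of the 11682 clones on the array, 84 met the rule. A clone had to stand at least 0.80 on the log2 scale (1.74-fold) higher on the day of flowering (age 0) than at +3 days post anthesis. It also had to stand at least 0.50 (1.41-fold) higher at age 0 than at -3, and its level at +15, where measured, had to lie above -1.5 against +3. The clones were thus chosen by their values at -3, 0 and +15 against +3, and these are given below as a description without a test, and no number from these 3 comparisons supports a difference. What the rule did not use is the course at +5, +10 and +20 and the comparison with the fl mutant.

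Anthesis is the day on which the flower opens and sheds pollen. In cotton it is also about the time when single cells of the outer layer of the ovule begin to bulge out as fibre initials, which later elongate and then lay down a cellulose-rich wall while fertilised ovules grow into seeds. The fl mutant is known from the literature as a fuzzless-lintless line, whose ovules bear no fibres, so that wild type and fl differ in the tissue that the ovule carries. No file used here gives a gene name or a sequence for any of the clones, so each is named by its clone identifier, no gene function can be set beside its values, and the ovule tissue could not be checked against marker genes.

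Ovules of Gossypium hirsutum were compared in pairs on 51 arrays that each held 2 RNAs, labelled with Cy5 and Cy3. Wild-type ovules of -3, 0, +5, +10, +15 and +20 days post anthesis were each hybridised against wild-type ovules of +3, and wild type was hybridised against the fl mutant at +3 and at +10. Each of the 8 comparisons was run in 3 sets, a set being a forward array and a second array with the dyes exchanged. On 3 self-to-self arrays both channels held +3 wild-type RNA. Per the design text the sets are biologically independent, and a set's mean over its arrays was counted as 1 replicate. The labels name no treatment, cultivar or growth condition, and do not say how many plants gave an RNA.

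All values are log2 ratios, and n counts the sets with both arrays measured. A clone is said to have a value in a comparison where at least 2 sets were complete. An array carried between 7639 and 11681 measured clones. The labels give the dyes but the table does not state the direction of its ratios. A control spot makes the direction used here the likely one, and if all ratios run the other way, higher and lower exchange places throughout. A single array occurs under both the +5 and the +10 comparison and was left out of each, so that these have n = 2. The clone signs of the +3 genotype comparison were turned, for the reason given with that result.

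Of 181 clones at least 0.80 higher at 0 than at +3, 70 were not raised by 0.50 over -3, 26 had no value at -3, and CM110H04 was lost at +15 with a value of -2.55. The 84 that remained include several close to a threshold. Just inside the first threshold were CM023B09 at 0.80 and CM088D01 at 0.81, and just outside were CM011B01 at 0.795 and CM068B05 at 0.79. For the rise over -3, CM088D01 at 0.52 and CM062B07 at 0.53 lay just inside, and CM073B07 at 0.496 and CM103C07 at 0.487 just outside. At +15 the lowest clones kept were CM023B09 at -1.36 and CM053A10 at -1.34.

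At age 0 the 84 clones had a median of 1.14 against +3, with a range of 0.80 to 2.96, where all clones had a median of 0.04. Against -3 their median at age 0 was 0.94. At -3 itself the median was 0.33, and the values spread on either side of +3, from -0.75 to 1.48. The medians of the 3 sets at age 0 were 1.22, 1.02 and 1.13, while at -3 they were 0.32, 0.47 and 0.03. The -3 arrays moved as a whole in the same order, with medians over all clones of -0.04, 0.20 and -0.26 in those sets, and single arrays between -0.52 and 0.47. With every array centred on its clones, 71 of the 84 met the rule and no other clone did.

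**Figure D1:**
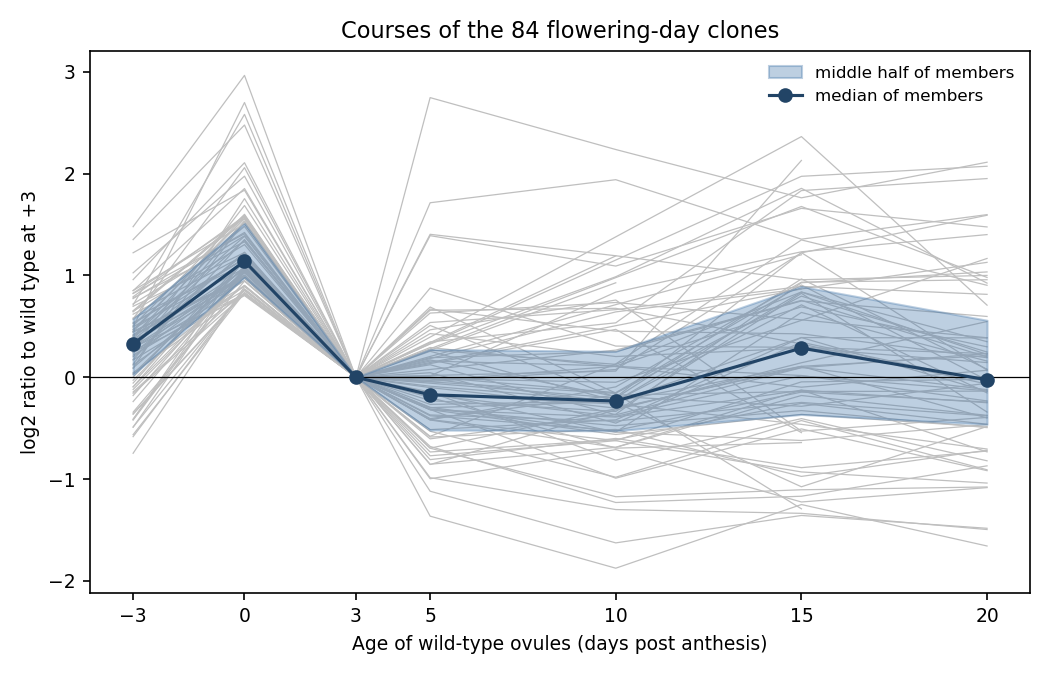
Log2 ratio to wild type at +3 (y axis) against the age of wild-type ovules in days post anthesis (x axis) for the 84 clones, each a grey line joined across ages without a value, with the median as points and the interquartile range shaded. The median stood at 1.14 at age 0, at -0.17 at +5 and at -0.23 at +10, and the values at -3, 0 and +15 are those that chose the clones.

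The choice was repeated with each set left out. The left-out values belong to the comparisons that the rule used, so these counts describe the sets and support no difference. Without set 1, 77 clones met the rule, of which 67 are among the 84, and in the left-out set 66 of the 74 with a value were at or above 0.80. Without set 2, 122 clones met it, 81 of them among the 84, and 86 of 118 reached 0.80 in set 2. Without set 3, 86 met it, 69 of them among the 84, and 75 of 82 reached 0.80 in set 3. The rise over -3 was found again in 65 of 71 clones in set 1, in 54 of 107 in set 2 and in 49 of 52 in set 3. Set 2 thus carried the lowest values at age 0 and the highest at -3. In the self-to-self arrays no clone of the 84 reached 0.80, but 5 in set 2 and 7 in set 3 lay at or below -0.80, with the lowest at -1.21, and their medians were -0.10, -0.14 and -0.24, near those of all clones at -0.15, -0.10 and -0.23.

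The highest of the group at age 0 was CM038H03, with 2.96, 2.95 and 2.99 in the 3 sets, a 7.80-fold excess over +3. Its sets were the closest together of the 10 clones described here. CM085B10 read 2.97, 2.17 and 2.94 and CM037F06 2.73, 2.49 and 2.52. In CM085B10, set 2 stood apart below the others. CM035G04 gave 2.54, 2.30 and 2.60, so that no set of these 4 clones lay below 2.17. CM096A03 followed at 2.11 ± 0.20 (SD, n = 3 here and in the next 5), CM012B02 at 2.06 ± 0.11, CM105C12 at 1.97 ± 0.23 and CM025C08 at 1.85 ± 0.06. CM004H08 reached 1.84 ± 0.09 and CM089A10 1.75 ± 0.25. All 10 were also higher at -3 than at +3 on average, but by unequal amounts: CM089A10 stood at 0.09 ± 0.33 there, and CM038H03 at 1.48 ± 0.46 (SD, n = 2).

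**Figure D2:**
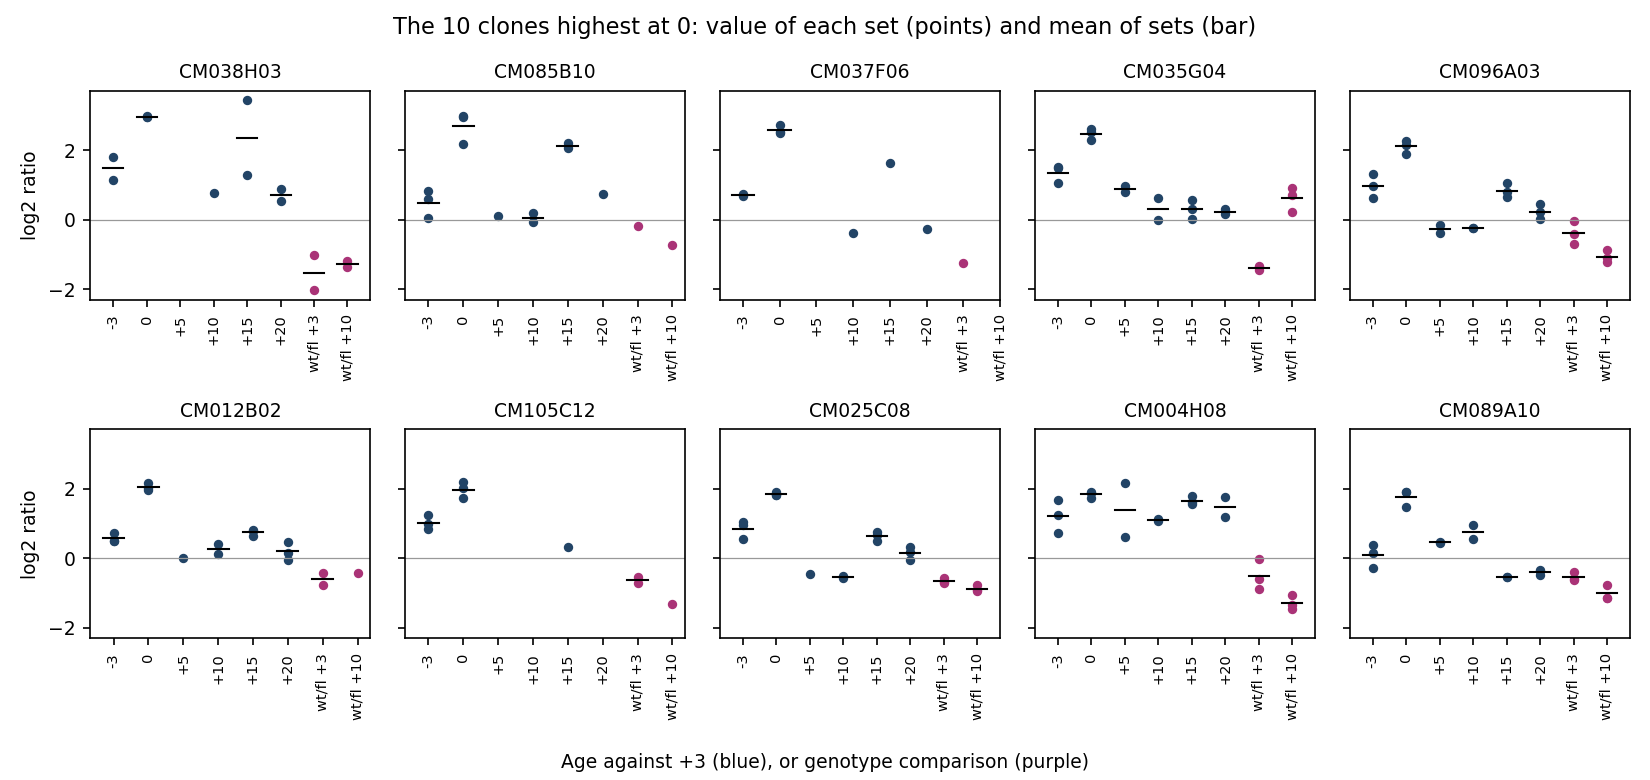
Log2 ratio of each set (points) and mean of the sets (bar) in the 6 age comparisons against +3 (blue) and in wild type over fl at +3, sign turned, and at +10 (purple), for the 10 clones highest at age 0. No mean at a later age exceeded that at age 0, which the choice favours. CM037F06 and CM105C12 had no mean at a later age, and CM085B10 and CM038H03 had means at only 2 of them. CM004H08 stood at 1.66 at +15 and 1.48 at +20, CM085B10 at 2.13 at +15, and the sets of CM038H03 at +15 were 1.28 and 3.44.

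After flowering most of the clones stood at lower levels through to +20. Of 64 clones with a value at all ages, 55 had their highest level at age 0, which the choice favours. The other 9 were highest at +5 (2 clones), +10 (1), +15 (3) or +20 (3). The age of the lowest level was +10 for 20 clones, +3 for 12, +5 for 11, +20 for 9, +15 for 7 and -3 for 5. Against age 0, the median difference was -1.30 at +5, -1.34 at +10, -1.05 at +15 and -1.24 at +20. At least 2-fold below the level at age 0 were 44 of 64 clones at +5, 56 of 76 at +10, 39 of 77 at +15 and 44 of 72 at +20. These differences include the value at age 0 that chose the clones and were not tested.

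The later ages were tested against +3 with limma over the whole table. These comparisons share the +3 wild-type RNA with the rule, so an error at +3 that helped to choose a clone also moves its later values. At +5, 14 of 64 clones were higher than at +3, where 26.8% of all probes were, and 26 were lower, where 29.2% were, with 56% of all probes called. At +10, 17 of 76 were higher (28.8% of all probes) and 31 lower (30.2%), with 59.1% of all probes called. At +20, 23 of 72 were higher (33.5%) and 26 lower (35.8%), with 69.3% of all probes called. The shares lower at +5 and +10, 40.6% and 40.8%, lay above those of all probes, and those at +20 lay near them. In the medians the clones stood at -0.17, -0.23 and -0.02, and all probes at -0.03, -0.02 and -0.01. By at least 2-fold, 4 clones were higher and 2 lower at +5 (5.01% and 2.76% of all probes), 5 and 5 at +10 (6.19% and 3.73%), and 10 and 6 at +20 (7.88% and 7.3%). The count at +5 rests on 2 sets, whose medians over the clones were -0.12 in set 1 and -0.28 in set 2. Fewer clones were called without set 2, but that leaves a single set.

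Clones on array plates from 80 up, by the number in their name, had lower ratios as a whole than those on the other plates, and the share of lower calls among the flowering-day clones differed in its excess accordingly. On plates below 80, 20 of 49 clones were lower at +5, or 40.8%, against 21.0% of all clones there. On plates from 80 up 6 of 15 were lower, against 45.6% of all clones. At +10 the same shares were 41.5% against 23.6%, and 39.1% against 43.2%. The excess of lower calls at these ages was thus seen on the plates below 80 and not on the others.

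**Figure D3:**
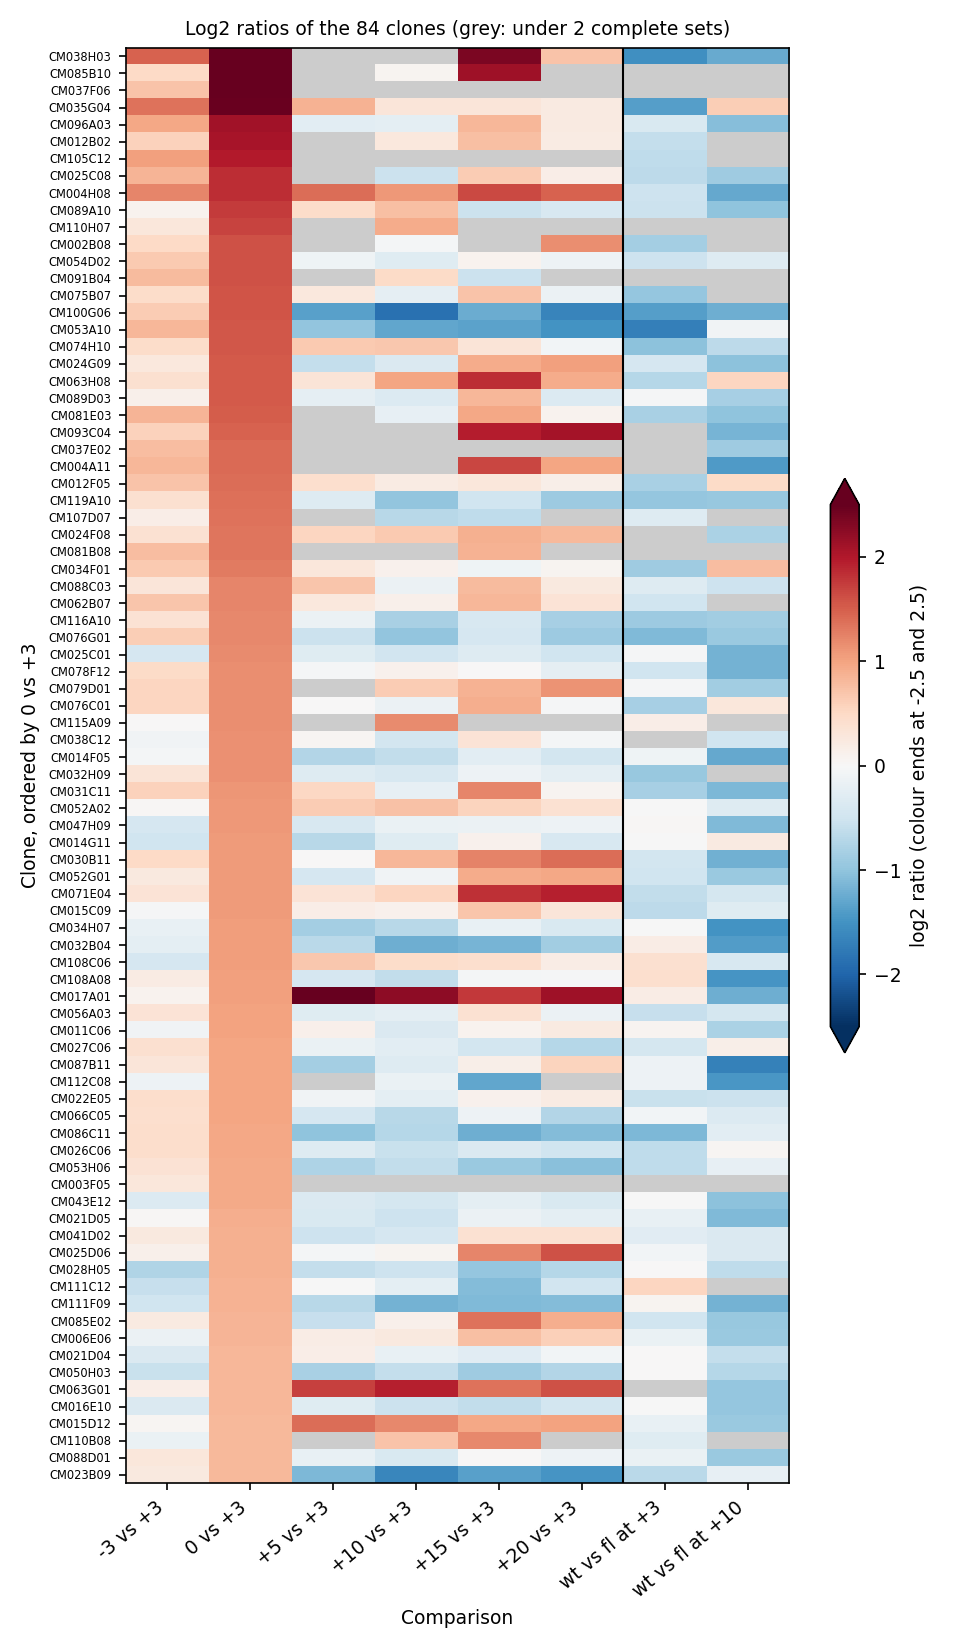
Log2 ratios of the 84 clones (rows, ordered by the value at age 0) in the 8 comparisons (columns), red for higher in the first-named sample and blue for lower, grey where fewer than 2 sets were complete. The red column at age 0 was fixed by the choice, the columns from +5 to +20 hold red and blue rows, and the last column, wild type over fl at +10, is blue for 60 of the 68 clones measured.

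A few clones stayed well above +3 after flowering. CM017A01 was at 1.02 ± 0.16 at age 0 (SD, n = 3) and went on to 3.08 and 2.41 in the sets at +5, a mean of 2.75 or 6.71-fold (adjusted p = 5.91e-11). At +10 its sets were 2.34 and 2.14, and at +20 they were 2.23, 2.11 and 1.99. The highest mean of this clone was thus at +5, although it met the rule. CM063G01 stood at 0.82 at age 0, at 1.72 and 1.70 in the sets at +5, at 1.84 and 2.04 at +10 and at 1.62, 1.53 and 1.64 at +20. CM015D12 read 1.51 and 1.30 at +5 and 1.29 and 1.09 at +10. All values of these 3 clones at +5 and +10 lay above their value at age 0.

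CM004H08 was higher at +5 by a mean of 1.39, but its sets read 0.61 and 2.17. Without set 2, which left a single set, it was no longer called. At +10 they were closer, at 1.12 and 1.07. CM115A09, which had under 2 complete sets at +5, +15 and +20, was higher at +10, with 1.22 and 1.16, and its only set at +15 read 1.98. At +20 CM093C04 stood at 1.62, 2.13 and 2.46, a 4.20-fold excess over +3, and CM071E04 to 1.67, 2.25 and 1.92, a 3.87-fold excess. CM071E04 had stood at only 0.35 at +5 and 0.53 at +10.

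Other clones were below +3 at all later ages. CM100G06 stood at 1.58 ± 0.04 at age 0 (SD, n = 3), at -1.01 and -1.72 at +5, at -1.79 and -1.96 at +10, or 3.67-fold lower than at +3 (adjusted p = 4.04e-08), and at -1.48, -1.81 and -1.69 at +20. Its level at +10 against age 0 was -3.45, the lowest such value among the 76 clones measured at +10. CM023B09 read -1.24 and -0.99 at +5, then -1.57 and -1.69 at +10, and -1.35, -1.41 and -1.69 at +20. CM053A10 read -0.86 and -1.11 at +5, -1.22 and -1.38 at +10, and -1.55, -1.45 and -1.49 at +20. In both clones every set at +5, +10 and +20 lay below 0. CM086C11 was lower at +5 by 0.996 on average (sets -1.31 and -0.68) and at +20 by 1.08 (sets -1.03, -0.93 and -1.29). CM032B04 was among the lowest at +10, with -1.03 and -1.43.

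As a description, the 64 clones tested at +5, +10 and +20 can be sorted by their calls at these ages, which share the +3 RNA. There were 18 clones lower than +3 at each age, 8 not called at any and 7 higher at each (CM004H08, CM015D12, CM017A01, CM024F08, CM052A02, CM063G01 and CM071E04). CM024G09, CM041D02 and CM087B11 were lower at +5 and +10 and higher at +20. CM089A10 followed the opposite course: it was higher at +5 (0.45 and 0.48) and at +10 (0.95 and 0.57) and lower at +20 (-0.34, -0.36 and -0.48). The other 27 clones were called at some of the ages only. All probes were not sorted in this way, so these classes cannot be called particular to the flowering-day clones.

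The difference between +20 and +10 cancels the mean level at +3, but not set by set, because sets were not taken as paired and set 2 is missing at +10. From +10 to +20, 13 of 69 clones rose, where 10.5% of all probes did, and 3 fell, where 12.2% did, with 22.6% of all probes called. By at least 2-fold, 5 rose (2.08% of all probes) and 1 fell (2.82%). The 3 strongest rises were CM025D06 at 1.51 ± 0.23 (SE), CM071E04 at 1.42 ± 0.16 and CM024G09 at 1.40 ± 0.17. The sets of CM025D06 moved from -0.14 and 0.29 at +10 to 1.73, 1.34 and 1.70 at +20, with no overlap. The 3 that fell were CM089A10 at -1.15 ± 0.18, CM074H10 at -0.74 ± 0.16 and CM027C06 at -0.44 ± 0.11 (SE). Without set 1, which leaves +10 with a single set, 5 clones were called, all of them rising, and CM025D06, CM089A10, CM074H10 and CM027C06 were not called.

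The comparison of wild type with fl at +10 shares no named RNA with the rule. Here most of the flowering-day clones had less transcript in wild type than in the mutant. Of 68 clones tested, 57 were lower, or 83.8%, where 39.8% of all probes were lower, and 5 were higher, where 26.4% were, with 66.1% of all probes called (limma, adjusted p under 0.05). At least 2-fold lower were 24 of the 68, where 3.95% of all probes were, and none of the 68 was at least 2-fold higher, where 9.53% were. The median of the clones was -0.88, their interquartile range was -1.11 to -0.37 and the range was -1.68 to 0.77, against a median of -0.14 over all probes. The medians of the 3 sets were -0.86, -0.84 and -0.79, with all clones at -0.12, -0.14 and -0.14. All 62 clones called had the same sign in every set. The RNA came from ovules, which hold many kinds of cells, so a lower value may stand for fewer cells of a kind or for less RNA per cell, which cannot be told apart here.

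**Figure D4:**
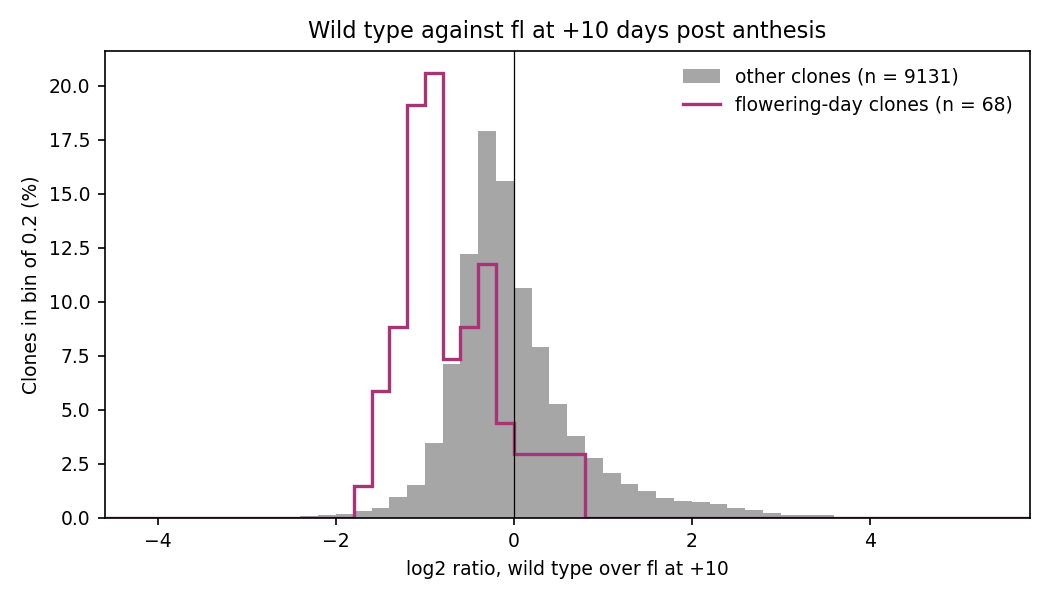
Share of clones (y axis, percent) in bins of 0.2 of the log2 ratio of wild type over fl at +10 (x axis), for the 68 flowering-day clones measured (line) and the 9131 other clones (grey). The flowering-day clones centre on -0.88 and end at 0.77, while the other clones centre near -0.14 and extend far to the right.

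The shift was present on either group of array plates. On plates below 80, 41 of 51 clones were lower in wild type with a median of -0.78, while all clones there had a median of -0.01 and 30.9% were lower. On plates from 80 up, 16 of 17 were lower with a median of -1.01, against -0.33 and 57.7%. With every array centred separately within each plate group, an alternative chosen after seeing the data, 54 of 68 clones were lower and 5 higher, with a median of -0.70. The shares of all clones under this centring are not given, so these counts do not show how much excess remained. The clones are spread over 61 of the 124 plates, with at most 3 on a plate. Forward and swapped arrays gave the same sign in 63 of 68, 48 of 54 and 73 of 82 clones in the 3 sets.

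The lowest at +10 was CM087B11, with -1.63, -1.61 and -1.80 in the 3 sets, 3.21-fold less in wild type than in fl (adjusted p = 6.81e-11). CM034H07 read -1.38, -1.39 and -1.73 (adjusted p = 1.40e-11) and CM108A08 -1.21, -1.58 and -1.66. CM112C08 had 2 sets, at -1.33 and -1.60. The highest of all these sets was -1.21.

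The clones higher in wild type at +10 were 5, and their differences were smaller. CM034F01 read 0.40 and 1.13, CM035G04 0.90, 0.22 and 0.70, CM063H08 0.37, 0.48 and 0.78, and CM012F05 0.46 and 0.51. In CM034F01 and CM035G04 the sets lay far apart but on the same side of 0. CM012F05 was not called without set 3, which left it with a single set.

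The lower level in wild type at +10 was found among clones of each later course. Of the 23 clones higher at +20 than at +3, 21 had a value against fl, and 20 of these were lower in wild type, with a median of -0.93. Of the 26 lower at +20, 19 of 25 were lower in wild type, also with a median of -0.93. Among the 23 not called at +20, 16 of 20 were lower and 4 higher, with a median of -0.56. CM017A01, highest of all at +5, was below fl in every set at +10 (-1.12, -1.17 and -1.41), and so was CM100G06, lowest of all at +10 (-1.11, -1.18 and -1.37). In each of the 3 classes the lower calls against fl outnumbered the higher ones, as they did over all probes (39.8% against 26.4%). Shares of all probes within each class were not counted. Of 12 clones not tested at +20, 2 had a value against fl, each lower in wild type.

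The 70 clones raised at age 0 over +3 but not over -3 give a neighbouring group. At +10, 28 of 42 of them were called lower in wild type, or 66.7%, where 39.8% of all probes were. Called higher were 4, where 26.4% of all probes were. Their median was -0.51 and their range -2.21 to 2.42. A lower level in wild type was thus not particular to the flowering-day clones. The difference between that group and the flowering-day clones was not tested. At the later ages their medians were -0.52 at +5, -0.56 at +10 and -0.64 at +20 against +3, below those of the flowering-day clones.

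At +3 the genotype comparison has no settled sign. In its 3 sets the dye effect of the probes, the part of a ratio that changes sign when the dyes are exchanged, had a correlation across clones with self-to-self values of -0.57 to -0.40. For the 21 sets of the other comparisons this correlation was -0.06 to 0.69. Clone values of this comparison were therefore turned, and all results at +3 exchange higher and lower with the sign as deposited. The control spot HEX, which gave the likely direction of the ratios, showed no such reversal. It read -8.70, -9.20 and -8.20 on the forward arrays of these sets and 7.50, 9.09 and 5.83 on the swaps, the same way as elsewhere. With the sign turned, 39 of 72 clones were lower in wild type, where 25.2% of all probes were, and 3 were higher, where 19.1% were, with 44.3% of all probes called. At least 2-fold lower were 7, where 0.891% of all probes were, and none was 2-fold higher, where 4.08% were. The median was -0.45, against -0.07 over all probes. With the deposited sign, 39 were higher (25.3% of all probes) and 3 lower (19%), and by at least 2-fold 7 were higher (0.92%) and none lower (4.05%). This comparison shares the +3 wild-type RNA with the rule, which required a low level at +3 relative to age 0.

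The clones furthest below fl at +3 are given with the sign turned. CM053A10 read -1.52, -1.76 and -1.84, and CM035G04 -1.46, -1.32 and -1.36. CM100G06 gave -1.41, -1.37 and -1.37, with an SD of 0.02 over the sets. CM038H03 had 2 sets, which lay apart at -1.03 and -2.03. The 3 higher in wild type were small: CM111C12 at 0.53 in each of its 2 sets, CM108A08 at 0.40 and 0.44, and CM108C06 at 0.39, 0.55 and 0.25. These 3 and CM038H03 were not called with set number as a replicate block, which gave 0 higher and 37 lower. Among the 70 clones not raised over -3, 50 of 63 were lower in wild type at +3, where 25.2% of all probes were, with a median of -0.97.

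**Figure D5:**
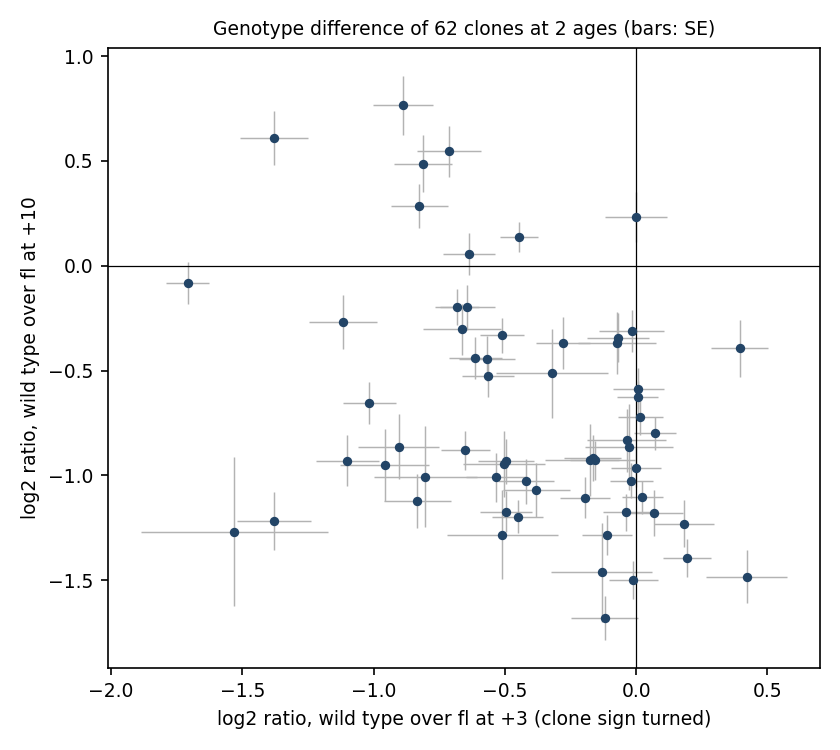
Log2 ratio of wild type over fl at +10 (y axis) against the same ratio at +3 with the clone sign turned (x axis) for the 62 flowering-day clones tested at both ages, with bars of 1 SE from the limma fit. Of the 62 points most lie below 0 on the y axis, the 5 clones called higher at +10 all lie left of 0 on the x axis, and with the deposited sign the picture is mirrored from left to right.

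Across the 62 clones tested at both ages, 23 were lower in wild type at +3 and +10, and 26 were lower at +10 only, with no call at +3. A further 5 were lower at +3 and higher at +10, 5 were lower at +3 and not called at +10, and 2 were higher at +3 and lower at +10. All probes were not sorted by both calls, so these joint counts have no share of all probes beside them. The change of the genotype difference from +3 to +10 was tested in the same fit. It passed in 42 of 62 clones, where 45.0% of all probes did: 30 moved towards a lower value in wild type, where 23.6% of all probes did, and 12 towards a higher value, where 21.4% did. By at least 2-fold, 11 moved towards lower (2.77%) and 6 towards higher (4.47%). With the deposited sign at +3, 55 of 62 changed, all of them towards a lower value in wild type at +10, where 40.8% of all probes did so and 65.4% were called. Of these, 37 moved by at least 2-fold (9.62% of all probes), and none moved 2-fold the other way (13.2%). The direction towards lower values was the more frequent with either sign, as it was over all probes, of which 24.7% moved towards higher with the deposited sign. The change includes the +3 comparison, which shares the +3 wild-type RNA with the rule. Of 39 clones not raised over -3, 18 moved towards higher and 9 towards lower with the turned sign. With the deposited sign, 34 of them moved towards lower and 0 towards higher.

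Not every clone could be followed throughout. All 8 comparisons were measured in 57 of the 84, or 67.9%, against 71.3% of all clones. Values were lacking for 20 clones at +5, for 16 between wild type and fl at +10, for 12 at +20, for 12 between wild type and fl at +3, for 8 at +10 and for 7 at +15. The 7 without +15, which met the rule without that criterion, are CM002B08, CM003F05, CM037E02, CM037F06, CM105C12, CM110H07 and CM115A09. Of these, CM110H07 was higher at +10 (1.22 and 0.63), CM002B08 was higher at +20 (1.02, 0.996 and 1.48) and CM037E02 was below fl at +10 (-0.41 and -1.35). CM003F05 had 2 or more complete sets only at -3 and 0. In the 1 complete set it had elsewhere, it read -0.24 at +15, 0.82 at +20, 0.03 against fl at +3 and 1.59 against fl at +10, the last above all 68 clones tested.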

How the data were processed

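Wild-type and fl ovules of upland cotton were compared on 51 arrays with 2 dyes. The authors deposited log2 ratios, as found from the values, of 11706 spots, of which 11682 are clones, 11 carry gene-like names and 13 are controls. Their normalization is not given in the sources used here, brightness and background are not in the table, so that precision is limited by the number of arrays. Exact zeros were taken as missing. Control spot HEX read -11.7 to -7.16 on forward arrays and 5.83 to 12.1 on dye swaps, which gives the likely direction, with swaps already turned. The array shared by +5 (set 3, forward) and +10 (set 2, forward) has 19 equal control and named values, where no other of 1275 pairs shares more than 1.

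Forward and swapped arrays were averaged within a set. A group-means model over all 8 comparisons was fitted to clones and named spots with limma 3.58.1 (lmFit, eBayes) in R 4.3.3, where at least 2 sets were complete, and adjusted by Benjamini-Hochberg within each contrast. Adjusted p under 0.05 was called. SDs are over sets, and SEs rest on the spread of a probe over all comparisons (prior SD 0.184, prior degrees of freedom 6.12). The fit was tested on simulated data.

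The clones, lists and tests were chosen with earlier results of these data known. Clones named are the 10 highest at age 0, the 4 highest and 4 lowest called in each tested comparison with the same sign in every set, the 3 highest and lowest called for differences of comparisons, those next to the thresholds and those without +15. CM024F08, CM052A02, CM041D02 and CM110H04 were named after their values were seen, as members of small groups. Alternatives were a fit of the contrast's comparisons alone, centring, scaling, exact 0 as measured, the shared array kept, the deposited sign at +3, set number as a replicate block, complete sets only, and each set left out. Gene lists and cell type markers could not be applied, because the clones have no gene names here.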

Additional observations from a re-analysis of the deposited data

Results flagged for a closer look

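The genotype difference, wild type over fl, changed between +3 and +10 in 42 of 62 flowering-day clones when that change itself was tested (limma, adjusted p under 0.05), where 45.0% of all probes changed. Leaving out a set gave 39 to 46. With the deposited sign at +3 the count was 55, where 65.4% of all probes changed. The +3 comparison in this change shares the +3 wild-type RNA with the rule.

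The 3 clones that moved furthest towards wild type were CM035G04, CM034F01 and CM053A10. CM035G04 went from -1.38 at +3 to 0.61 at +10, a change of 1.99 ± 0.18 (SE; adjusted p = 9.29e-08). CM034F01 went from -0.89 to 0.77, a change of 1.65 ± 0.18, and CM053A10 from -1.71 to -0.08, a change of 1.63 ± 0.13. With the deposited sign at +3 the changes of these clones are -0.77, -0.12 and -1.79, so their direction rests on the turned sign.

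The 3 that moved furthest the other way were CM108A08, CM032B04 and CM087B11. CM108A08 went from 0.42 to -1.48, a change of -1.90 ± 0.20 (SE; adjusted p = 5.67e-07). CM032B04 went from 0.19 to -1.39, a change of -1.59 ± 0.13, and CM087B11 from -0.12 to -1.68, a change of -1.56 ± 0.16. With the deposited sign these changes are -1.06, -1.20 and -1.80, in the same direction.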

How the results depend on the processing

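Counts below are of flowering-day clones called. The shares of all probes under each setting are not given with them, so they show no excess over all probes. Scaling the arrays after centring, which multiplies the ratios at age 0, raised the number of clones meeting the rule from 84 to 368, with all 84 among them, and moved the values at age 0 of all 10 clones named there. Other settings gave 62 to 84. Without a set in turn, the rule was met by 77 to 122 clones, and the calls ran from 22 to 49 at +5, 35 to 47 at +10, 42 to 50 at +20, 36 to 40 for wild type against fl at +3, 55 to 65 at +10, 5 to 15 from +10 to +20 and 39 to 46 for the change of the genotype difference. Where 1 set was left, its spread was assumed to be that of the other comparisons. The deposited sign at +3 reversed CM111C12 (-0.53), CM108A08 (-0.42), CM108C06 (-0.39), CM053A10 (1.71), CM038H03 (1.53), CM035G04 (1.38) and CM100G06 (1.38) there, and the changes of CM035G04 (-0.77), CM034F01 (-0.12) and CM053A10 (-1.79). Centring turned the split at wild type against fl at +10 from 5 higher and 57 lower to 7 and 49, and moved the median from -0.88 to -0.75. With the shared array kept, 47 clones were called at +5 and 54 at +10. Set numbers were not taken as pairing the samples: over 70 pairs of same-numbered sets, deviations correlated at -0.22 to 0.31, with 11 above 0.1 and 8 below -0.1. Those of fl over wild type at +3, whose sign is unsettled, with +15 were -0.19, -0.12 and -0.17 with the turned sign. With +20 they were -0.20, -0.05 and -0.22, and with +10 they were -0.08 and -0.07. The other ages went both ways: -0.16 and 0.24 at +5, -0.09, 0.05 and 0.09 at 0, and 0.005, -0.09 and -0.09 at -3. With the deposited sign each of these takes the opposite sign. Those with +10, +15 and +20 are then positive, as a +3 RNA shared within a set would make them. Whether same-numbered sets share a +3 RNA was not tested. The replicate block gave 36 at +5, 48 at +10, 45 at +20, 37 at wild type against fl at +3, 59 at +10, 15 from +10 to +20 and 38 for the change of the genotype difference. It left CM111C12, CM108A08, CM108C06 and CM038H03 uncalled at +3, where the counts were 0 higher and 37 lower. Of 652 values of named clones under these settings, 610 kept direction and call, 20 lost the call, 12 moved and 10 reversed. Complete sets only was not run at +5, +10 and from +10 to +20, which have 2 sets. Dim spots could not be filtered.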
